A study of Mus musculus with 4 samples.

Results

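AP-1 and related bZIP factors were examined in MC38 cells with and without deletion of Cbfb, the gene for the subunit that RUNX transcription factors need for stable DNA binding. The 10 genes were chosen by name: Jun, Junb and Jund of the Jun family, Fos, Fosb, Fosl1 and Fosl2 of the Fos family, Atf3, and the small Maf genes Maff and Mafk. All 10 were among the 26322 genes of the deposited table, and all 10 passed a filter on low values that kept 12207 genes for testing. That filter required a log2 CPM (counts scaled to the library total, on a log2 scale) of at least 0 in at least 2 of the 4 libraries.

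MC38 is a mouse colon carcinoma line. Cells were electroporated with Cas9 complexed to a guide RNA, either a non-targeting guide (labelled WT) or a guide against Cbfb (labelled CbfbKO), so both groups had been electroporated with Cas9. Cells were collected at least 1 week later, after an immunoblot for the protein, and 2 libraries per group were sequenced from the 3′ ends of transcripts. A further replicate of each group had been set aside for poor RNA. The labels do not say whether edited cells were cloned, nor whether replicates came from separate cultures, so p-values measure only the spread between these libraries. The 8 epithelial and colon markers examined summed to between 5 and 7 reads per library, with Krt18 and Vil1 at 0 and Epcam and Cdh1 at 0 to 2 reads. The 8 mesenchymal and fibroblast markers were mixed. Vim had 6737 to 8669 reads, Col3a1 197 to 386 and Dcn 95 to 116, while Col1a1 had 8 to 13, Pdgfrb 4 to 16 and Col1a2 0 to 2, and Thy1 and Lum were at 0. Col3a1 was lower in CbfbKO, with 217 and 197 reads against 386 and 354 in WT (adjusted p = 2.46e-06 from limma), and its part in the results was not tested. The labelled colorectal identity was thus not visible in these transcripts.

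AP-1 is a dimer of basic leucine zipper (bZIP) proteins. Jun proteins pair with themselves, with Fos proteins, which cannot form stable dimers with each other, or with ATF proteins such as ATF3, and the dimers bind TGACTCA or the longer TGACGTCA. Many members are immediate-early genes, transcribed within minutes of a mitogen, cytokine or stress signal, and their proteins are further activated by MAP kinases. Small Maf proteins lack a transactivation domain, pair with CNC factors such as NRF2 and Bach1, and recognise a longer site that contains the AP-1 core. AP-1 and RUNX sites often lie close together in enhancers, and JUN and FOS proteins can bind RUNX proteins directly.

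Each library held between 3189035 and 3907936 reads counted on genes, so that 1 read was worth 0.256 to 0.314 CPM. Ribosomal RNA from Rn45s took 11.3% to 13.9% of them. Cbfb, the targeted gene, had 295 and 285 reads in WT and 125 and 125 in CbfbKO libraries, 41.5% of the WT level (log2 fold change -1.27 with a standard error of 0.12 and an adjusted p = 1.76e-07 in limma after Benjamini-Hochberg adjustment). The smallest p-value that exact permutation of 2 and 2 libraries can give is 0.333, and the calls rest on the spread that limma shares across genes.

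Of the 10 genes, Jun alone passed an adjusted p-value of 0.05, and it was lower in CbfbKO cells. None was higher. Across all tested genes, 2.83% passed, 1.25% in the lower direction and 1.57% in the higher. At an unadjusted p-value under 0.05 there were 2 of the 10, Jun and Jund, beside 14.9% of all tested genes. The median log2 fold change was 0.079 over the 10 genes and 0.039 over all tested genes. In 4 of the 10 the WT and CbfbKO libraries did not overlap, Jun with CbfbKO lower and Junb, Jund and Mafk with CbfbKO higher, beside 44.1% of all tested genes (27.4% with CbfbKO higher and 16.8% with CbfbKO lower).

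In the 3′ libraries reads do not grow with transcript length, so levels can be set side by side between genes as transcript ends. Jun and Fosl1 were the most abundant in WT cells, at 7.87 ± 0.010 and 7.86 ± 0.098 log2 CPM (SD, n = 2), both at the 94.2th percentile of the tested genes. They did not differ beyond their spread. Junb (6.83 ± 0.018) and Fosl2 (6.77 ± 0.10) followed and did not differ beyond theirs, and Jund came next at 6.24 ± 0.030. Maff (4.93 ± 0.15) and Mafk (4.78 ± 0.015) came after them, with Maff at 4.82 and 5.03 and Mafk at 4.79 and 4.77 in the WT libraries. Both Maff values were above both Mafk values, by less at the nearest pair than the Maff replicates differed from each other. Atf3 (1.40 ± 0.21), Fos (1.06 ± 0.73) and Fosb (1.06 ± 0.70) were the lowest and could not be ordered, each with 8 reads or fewer per WT library. In CbfbKO cells Fosl1 (7.89 ± 0.17) stood above Jun (7.50 ± 0.056), with libraries that did not overlap.

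**Figure D1:**
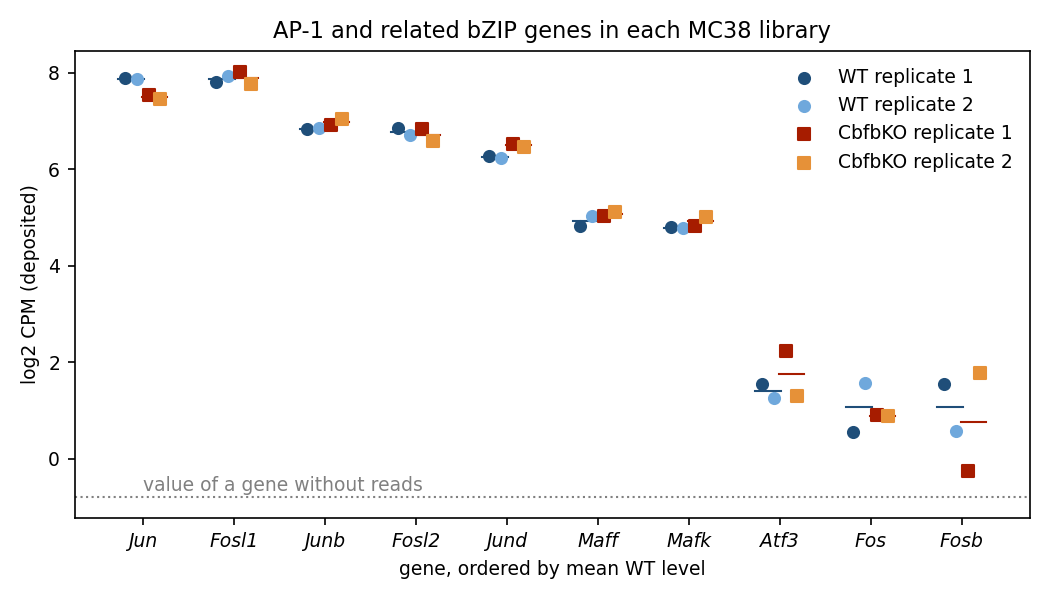
Deposited log2 CPM (vertical axis) of the 10 AP-1 and related bZIP genes (horizontal axis, ordered by mean WT level) in each of the 2 WT (circles) and 2 CbfbKO (squares) libraries. Short lines are group means and the dotted line is the value of a gene without reads. Both CbfbKO values of Jun lie below both WT values, while Atf3, Fos and Fosb lie near the floor with wide spreads.

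Jun encodes c-Jun, the archetypal Jun protein and the strongest transactivator of its family. It had 797 and 775 reads in the WT libraries and 724 and 559 in the CbfbKO libraries. Scaled to library totals this was 235 and 232 CPM in WT against 185 and 175 CPM in CbfbKO. Both CbfbKO libraries were below both WT libraries, and the WT replicates lay close together. Jun fell by 0.37 in log2 CPM (standard error 0.073, 95% confidence interval -0.52 to -0.22, adjusted p = 0.00307 in limma after Benjamini-Hochberg adjustment), to 77.2% of the WT level. In bulk RNA, fewer cells with Jun RNA and less of it per cell cannot be told apart. By p-value it ranked 144 among the tested genes. Without CbfbKO replicate 2, the library with the lower Jun value, the log2 fold change was -0.33 and the call was lost (adjusted p = 0.0807, limma). The direction was the same in all 15 alternative settings, and the call was kept in 11 of them. It was also lost under quantile normalization (adjusted p = 0.0584, limma), without a filter on low values (0.291) and without the mean-variance trend (0.352). When the genes that pass the filter over all 4 libraries were kept, a choice made after seeing the data, leaving out WT replicate 1 (0.0547) or CbfbKO replicate 1 (0.447) ended it as well.

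Jun is a gene of a single exon, at chr4:95049034-95052222 on the minus strand (GRCm38, GENCODE M21). The sequence before its start is shown because Jun was the member that changed and because its promoter is a classic case of autoregulation: c-Jun with ATF2 binds a pair of AP-1-like sites there, TGACATCA and TTACCTCA. The 250 bases before the start in the RefSeq promoter table (GRCm38.p6, minus strand) are given for Jun (chr4:95052223-95052472) and, for comparison, for Junb (chr8:84978749-84978998). Capitals mark matches on either strand to TGACTCA, TGACGTCA, TGACATCA, TTACCTCA or TGTGGT. The last is a form of the RUNX core, and other forms of that core were not searched.
Jun: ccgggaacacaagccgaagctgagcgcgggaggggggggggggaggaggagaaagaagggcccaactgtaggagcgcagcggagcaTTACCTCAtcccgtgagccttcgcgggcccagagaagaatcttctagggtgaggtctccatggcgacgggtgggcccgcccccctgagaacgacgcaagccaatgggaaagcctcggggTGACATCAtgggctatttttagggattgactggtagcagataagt
Junb: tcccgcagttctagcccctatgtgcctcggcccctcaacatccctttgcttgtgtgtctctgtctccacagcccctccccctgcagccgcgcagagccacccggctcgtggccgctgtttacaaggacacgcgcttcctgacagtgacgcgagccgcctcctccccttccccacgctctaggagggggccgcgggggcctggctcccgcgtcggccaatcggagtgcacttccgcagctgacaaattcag
In the Jun sequence TTACCTCA lay at positions -164 to -157 and TGACATCA at -45 to -38 from the start, and Junb held none of the 5 motifs. RefSeq windows of 300 bases, from 250 before to 50 after a start, were found for 9 of the 10 genes, 11 windows in all. Fosl1 was the gene without one. TGACATCA occurred in 2 of the 11 (Jun and 1 of 3 windows of Maff), TTACCTCA in 1 (Jun) and TGACGTCA in 1 (another window of Maff), and TGACTCA and TGTGGT in 0 of 11. Among 32851 promoter windows of the same length, 3.62% held TGACATCA, 0.889% TTACCTCA, 1.79% TGACGTCA, 5.20% TGACTCA and 16.8% TGTGGT. The window listed for Jund ends 1160 bases before the start that GENCODE gives for that gene, and bears less on it for that reason. TGACATCA and TTACCTCA are the known sites of the Jun promoter and were added to the search after the sequences were seen. Their presence in Jun was therefore given in advance. The matches describe letters in a window, and no binding was measured here.

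Junb encodes JunB, a Jun protein with weaker transactivation that can oppose c-Jun at some sites. Its libraries held 382 and 382 reads in WT and 465 and 414 in CbfbKO. At 119 and 130 CPM both CbfbKO values were above the WT values of 112 and 115 CPM, by a margin small beside the spread of the CbfbKO pair. The log2 fold change was 0.13 (standard error 0.088, 95% confidence interval -0.051 to 0.31, adjusted p = 0.536 from limma), and it ran from 0.068 without CbfbKO replicate 2 to 0.19 without CbfbKO replicate 1. The 3′ end of Junb overlaps Prdx2 on the opposite strand by 351 bases, and the use of strand in counting is not given in the sources used here. Reads could have been split between them, and Prdx2, a peroxiredoxin gene, had 420 and 436 reads in WT and 634 and 474 in CbfbKO (log2 fold change 0.29, adjusted p = 0.0666 from limma).

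Jund encodes JunD, the Jun protein that is expressed most steadily across growth states. It had 259 and 247 reads in WT and 357 and 280 in CbfbKO, or 76.3 and 74.1 CPM against 91.4 and 87.8 CPM. The groups did not overlap. The log2 fold change of 0.25 (standard error 0.098, 95% confidence interval 0.048 to 0.45) had an unadjusted p of 0.0176 in limma and did not pass after Benjamini-Hochberg adjustment (adjusted p = 0.200). Without the mean-variance trend its unadjusted p was 0.0798 in limma. The log2 fold change ran from 0.22 without CbfbKO replicate 1 to 0.28 without CbfbKO replicate 2. Gm11175, an antisense gene for which no values were given, overlaps Jund by 919 bases on the opposite strand.

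**Figure D2:**
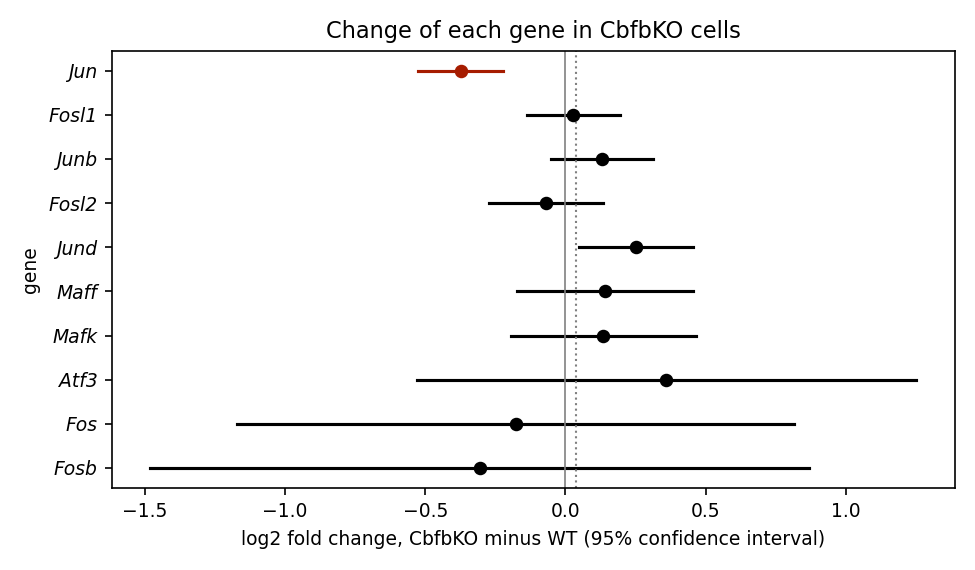
Log2 fold change of CbfbKO over WT (horizontal axis) with its 95% confidence interval from limma for each of the 10 genes (vertical axis, ordered by WT level). The dotted line is the median of all tested genes, 0.039. The interval of Jun lies below 0, that of Jund just above 0 and those of the other 8 genes span 0.

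Within the Jun family, Jun made up a smaller share of the reads in CbfbKO cells. Jun supplied 55.4% and 55.2% of the family's reads in the WT libraries (Wilson 95% intervals 52.8% to 58.0% and 52.6% to 57.8%). In the CbfbKO libraries it supplied 46.8% and 44.6% (44.4% to 49.3% and 41.9% to 47.4%). The intervals, which cover counting error only, did not overlap between groups. The mean share was 55.3% ± 0.159 in WT and 45.7% ± 1.57 in CbfbKO (SD, n = 2), a difference of -9.59 percentage points (exact permutation test, two-sided, p = 0.333, the smallest the design allows). The ratio of Jun to Jund reads was 3.08 and 3.14 in WT and 2.03 and 2.00 in CbfbKO. For Jun to Junb it was 2.09 and 2.03 against 1.56 and 1.35, and for Junb to Jund the groups overlapped, with 1.47 and 1.55 against 1.30 and 1.48. A ratio within a library does not depend on the scaling between libraries. It does not show which of the genes differed. The 3 genes summed to 423 and 421 CPM in WT and 396 and 393 CPM in CbfbKO.

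**Figure D3:**
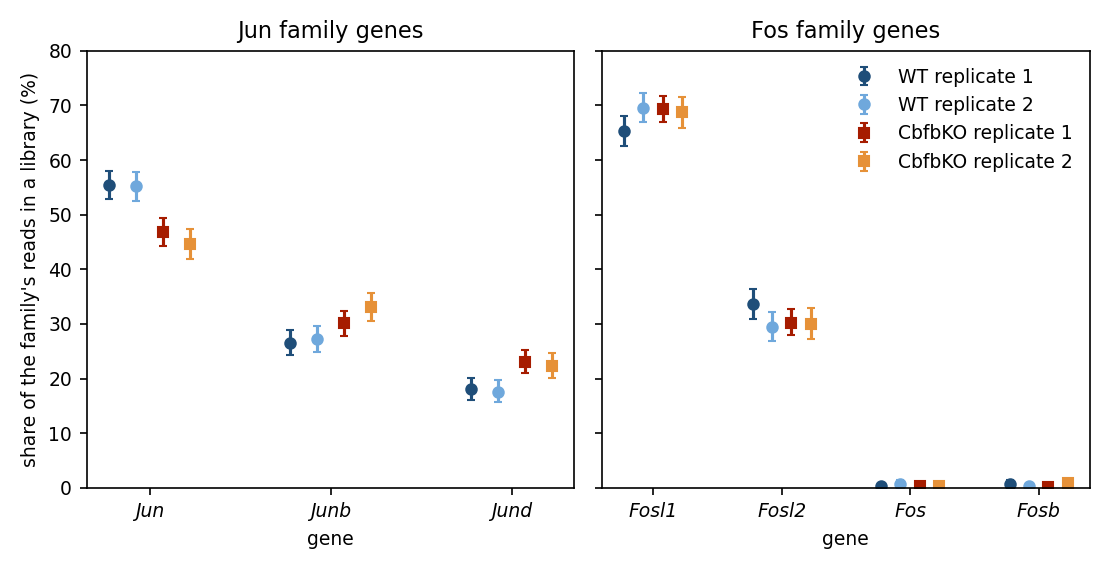
Share of a family's reads (vertical axis, percent) that each Jun family gene (left panel) and each Fos family gene (right panel) supplied in each of the 4 libraries, with Wilson 95% intervals as bars. The Jun points of the CbfbKO libraries, 46.8% and 44.6%, lie below the WT points, 55.4% and 55.2%, while the Fos family shares of the groups lie close together.

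Fosl1 encodes FRA-1, a Fos protein that lacks a strong transactivation domain and is typically abundant in mesenchymal and invasive tumour lines. Its libraries held 752 and 813 reads in WT and 1006 and 695 in CbfbKO, or 221 and 244 against 257 and 218 CPM. CbfbKO replicate 1 was the highest of the 4 libraries and CbfbKO replicate 2 the lowest, so the groups overlapped. The log2 fold change was 0.028 with a 95% confidence interval of -0.14 to 0.19 (adjusted p = 0.920 from limma), an interval of 0.908-fold to 1.14-fold. The 3′ end of Fosl1 lies within Ccdc85b on the opposite strand, an overlap of 2767 bases, and Ccdc85b was given 50 to 79 reads per library.

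Fosl2 encodes FRA-2, the closest relative of FRA-1. It had 387 and 344 reads in WT and 439 and 303 in CbfbKO (6.84 and 6.70 against 6.82 and 6.58 log2 CPM). These values also overlapped, with a log2 fold change of -0.069 (95% confidence interval -0.27 to 0.13, adjusted p = 0.815 from limma). Together Fosl1 and Fosl2 made up nearly all Fos family reads, and Fosl1 alone supplied 65.4% and 69.6% in WT and 69.3% and 68.7% in CbfbKO.

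The classic immediate-early members Fos and Fosb, which encode the strongly transactivating c-Fos and FosB and rise briefly after stimulation, were near the detection limit. Fos had 3 and 8 reads in WT and 5 and 4 in CbfbKO. Fosb had 8 and 3 reads in WT and 1 and 9 in CbfbKO. Neither gene separated the groups, and the exact Poisson 95% interval of a count of 8 alone ran from 3.45 to 15.8 reads. Their log2 fold changes were -0.18 (95% confidence interval -1.17 to 0.82, adjusted p = 0.912 from limma) and -0.31 (-1.48 to 0.87, adjusted p = 0.867). A change smaller than these intervals was not detectable at this depth.

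Atf3 encodes a stress-inducible ATF protein that pairs with Jun proteins and often represses. It had 8 and 6 reads in WT and 16 and 6 in CbfbKO. A single library, CbfbKO replicate 1, was higher than the rest. The log2 fold change was 0.36 (95% confidence interval -0.53 to 1.25, adjusted p = 0.773 from limma), and without that library it was -0.10.

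Maff and Mafk encode the small Maf proteins MafF and MafK. Maff had 94 and 107 reads in WT and 125 and 108 in CbfbKO (4.82 and 5.03 against 5.02 and 5.11 log2 CPM), and its groups overlapped. For Mafk the reads were 92 and 89 in WT and 108 and 101 in CbfbKO (27.1 and 26.7 against 27.6 and 31.7 CPM), with both CbfbKO values above both WT values. The log2 fold changes were 0.14 for each, with 95% confidence intervals of -0.17 to 0.46 for Maff and -0.19 to 0.46 for Mafk (adjusted p = 0.743 and 0.768 from limma). With 1 library left out they ran from 0.036 (without WT replicate 1) to 0.25 (without WT replicate 2) for Maff, and from 0.039 (without CbfbKO replicate 2) to 0.23 (without CbfbKO replicate 1) for Mafk. The third small Maf gene, Mafg, was more abundant than both and held between 68.8% and 72.3% of small Maf reads in each library.

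**Figure D4:**
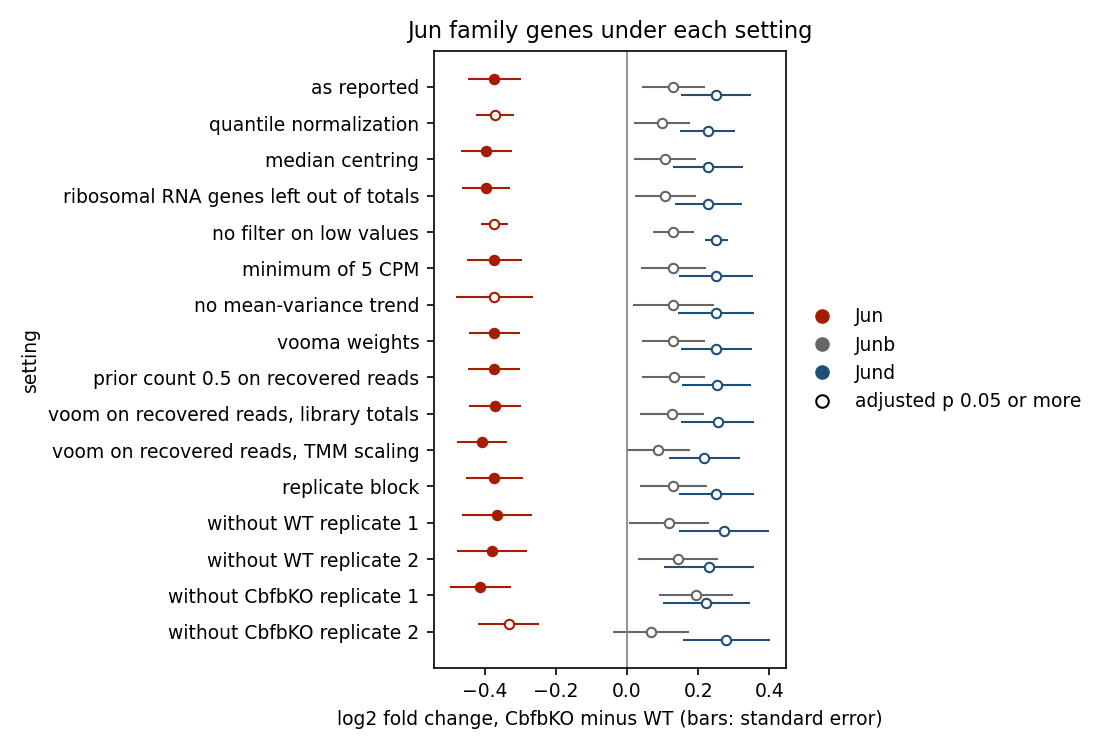
Log2 fold change of CbfbKO over WT (horizontal axis, bars are standard errors) of Jun, Junb and Jund as reported and under 15 alternative settings (vertical axis). Filled points passed an adjusted p-value of 0.05. Jun stays between -0.41 and -0.33 throughout and is an open point in 4 alternatives, and Junb and Jund stay above 0 and open.

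The genes whose pattern over the 4 libraries lay closest to that of Jun, by Euclidean distance of centred log2 values, were Fzd7 (0.028), Twist1 (0.034), Plcl1 (0.039), Syne3 (0.043) and Zmiz1 (0.054). Twist1, a mesenchymal bHLH factor, had 204 and 196 reads in WT and 188 and 145 in CbfbKO. None of these 5 passed the test, with adjusted p-values from 0.0556 to 0.720 (limma), although Zmiz1 passed in 6 of 15 alternatives (adjusted p from 0.0220 to 0.347). With only 4 libraries such likeness is common: 487 tested genes, 3.99%, had a Pearson r with Jun above 0.95.

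Among 26 other bZIP genes tested, none passed in either direction at an adjusted p-value of 0.05 in limma, beside 2.83% of all tested genes, and 4 of the 26 had an unadjusted p under 0.05, a share close to the 14.9% of all tested genes. The smallest p-values were those of Nfe2l2, which encodes NRF2, the stress-responsive partner of small Maf proteins, and of Atf6b, a factor of the unfolded protein response. Nfe2l2 had 636 and 655 reads in WT and 620 and 508 in CbfbKO (log2 fold change -0.27, adjusted p = 0.0556), and Atf6b 425 and 386 against 637 and 437 (0.31, adjusted p = 0.0688). The list's median was 0.023, beside 0.039 for all tested genes. Nfe2l2 passed in 7 of 15 alternatives, with adjusted p-values from 0.0110 to 0.453 in limma. Atf6b passed in 4 of 15, with adjusted p-values from 0.0177 to 0.928, and its log2 fold change ran from 0.19 (without CbfbKO replicate 1) to 0.44 (without CbfbKO replicate 2).

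Of 28 kinases and phosphatases that act on AP-1, none passed in limma (2.83% of all tested genes did), 4 had an unadjusted p under 0.05, close to the 14.9% of all tested genes, and the median log2 fold change was 0.028. Dusp10, a phosphatase of JNK and p38, had 27 and 43 reads in WT and 89 and 50 in CbfbKO (log2 fold change 0.86, adjusted p = 0.0689 from limma). Mapk3, which encodes ERK1, had 429 and 411 against 623 and 453 (0.27, adjusted p = 0.0975), and passed in 1 of 15 alternatives (adjusted p from 0.0464 to 0.747). Both had higher values in both CbfbKO libraries. Dusp10 passed in 5 of 15 alternatives, with adjusted p-values from 0.00135 to 0.996, and its log2 fold change ran from 0.53 (without WT replicate 1) to 1.19 (without WT replicate 2).

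Among 14 genes for turnover or transcriptional control of AP-1, 1 passed, 7.14% beside 2.83% of all tested genes. Zfp36l2, an RNA-binding protein that promotes decay of AU-rich mRNAs, a class that includes several immediate-early transcripts, had 1801 and 1815 reads in WT and 1649 and 1223 in CbfbKO. It fell by 0.42 in log2 CPM (adjusted p = 0.000148 from limma, with a standard error of 0.063), and 0 genes of the list rose. The list's median was 0.021.

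Of 24 other immediate-early genes tested, 1 rose and 2 fell, 12.5% of the list beside 2.83% of all tested genes (1.57% higher and 1.25% lower), and the list's median was -0.10. Ier3, a stress-induced gene linked to survival signalling, had 2109 and 1946 reads in WT and 3154 and 2612 in CbfbKO and rose by 0.43 on the log2 scale (adjusted p = 2.07e-05 from limma). Klf4, a zinc finger transcription factor, had 619 and 615 against 528 and 490 and fell by 0.35 (adjusted p = 0.0161). Btg1, an antiproliferative gene, had 558 and 552 against 510 and 442 and fell by 0.29 (adjusted p = 0.0485). Each of the 3 had groups that did not overlap, but Btg1 did not pass when any 1 library was left out, nor did Klf4 without CbfbKO replicate 1. Quantile normalization also ended the calls of Klf4 and Btg1 (adjusted p = 0.188 and 0.160 in limma). Of 15 alternative settings, 8 ended the call of Btg1, 4 that of Klf4 and 2 that of Ier3.

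**Figure D5:**
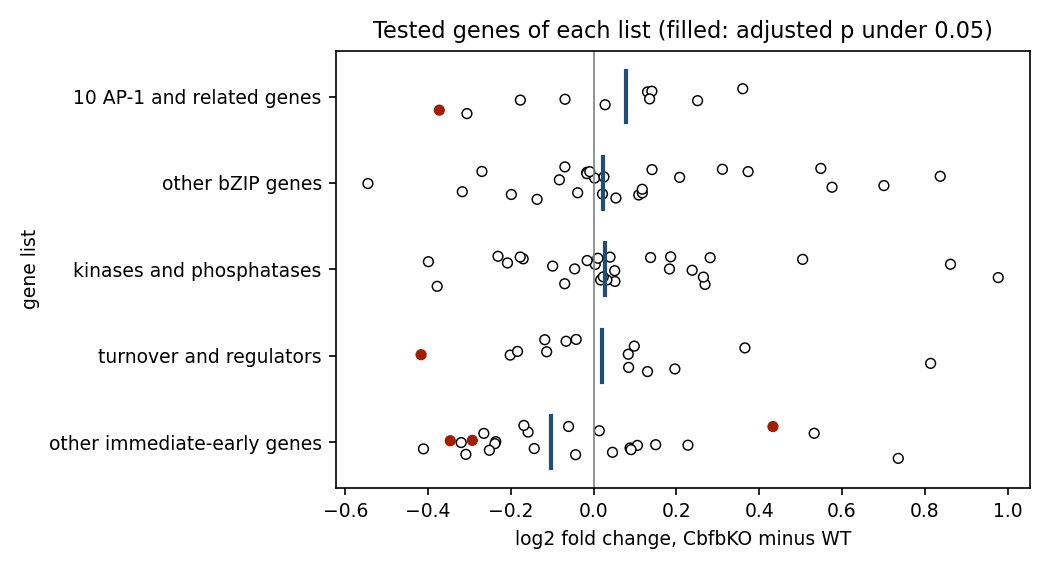
Log2 fold change of CbfbKO over WT (horizontal axis) of every tested gene in the 10 AP-1 and related genes and in 4 lists of related genes (vertical axis). Each point is a gene, vertical scatter within a row has no meaning, filled points passed an adjusted p-value of 0.05, and vertical bars are list medians. Filled points number 1, 0, 0, 1 and 3 from the top row down.

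Of 32 textbook AP-1 target genes tested, 5 rose and 5 fell, 31.3% of the list beside 2.83% of all tested genes, and the median was -0.12. Among those that rose were Mmp9, the gelatinase B gene, with 39 and 31 reads in WT and 122 and 86 in CbfbKO (log2 fold change 1.44, adjusted p = 6.84e-05 from limma), and Cdkn1a, the p21 cell cycle inhibitor, with 246 and 256 against 401 and 366 (0.54, adjusted p = 0.00146). Timp1, an inhibitor of metalloproteinases, had 250 and 197 against 348 and 305 (0.48, adjusted p = 0.0131). Those that fell included Spp1, which encodes osteopontin, with 389 and 365 reads in WT and 66 and 63 in CbfbKO (-2.58, adjusted p = 1.25e-12), and Areg, the EGFR ligand amphiregulin, with 88 and 76 against 40 and 36 (-1.13, adjusted p = 0.00154). Ccnd1, cyclin D1, had 3068 and 3072 against 3013 and 2353 (-0.27, adjusted p = 0.00353), and Nqo1, a quinone reductase that is also a target of NRF2, had 715 and 582 against 576 and 447 (-0.41, adjusted p = 0.00604). Genes of the list thus moved in both directions while Jun was lower. Many also answer to other factors, and the list was chosen with earlier results of these data known, so its share is a description. Of 15 alternative settings, 6 ended the call of Timp1 and 6 that of Nqo1. The number was 4 for Cdkn1a, 3 each for Areg and Ccnd1, and 2 each for Mmp9 and Spp1. Leaving out 1 library ended the calls of Timp1 (without WT replicate 2 or either CbfbKO replicate), Nqo1 (without WT replicate 1 or either CbfbKO replicate), and Cdkn1a and Ccnd1 (without CbfbKO replicate 2), with adjusted p-values of 0.0658 to 0.220.

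Of 19 RUNX and AP-1 partner genes tested, 2 rose and 1, Cbfb itself, fell, 15.8% beside 2.83% of all tested genes. That share includes the edited gene, and the list was chosen with earlier results of these data known, so it is a description. Runx1 had 249 and 252 reads in WT and 455 and 378 in CbfbKO and rose by 0.65 on the log2 scale (adjusted p = 6.84e-05 from limma). Runx2 had 55 and 52 against 108 and 90 (0.79, adjusted p = 0.0123), a call lost without either CbfbKO library (adjusted p = 0.169 and 0.173). Runx3 had 0 reads in all 4 libraries, which allows up to 3 reads in a library. The other partner genes tested, among them the genes for TEAD, ETS, NFAT and SMAD3 factors and for chromatin coactivators, did not pass.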

How the data were processed

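Total RNA with an integrity number above 9 was made into QuantSeq 3′ libraries. Per the labels, reads were trimmed with cutadapt 1.9, aligned to mm10 with HISAT2 2.1.0 and counted with featureCounts 2.0.1. The study's methods name a different version of featureCounts. The authors deposited log2 CPM, scaled to library totals with a prior count of 2. Annotation release, strand use and multi-gene reads are not given in the sources used here. Reads were recovered from the steps between values (100% within 0.1 of a whole number). The deposited values were tested with limma 3.58.1 in R 4.3.3 (mean-variance trend, two-sided, Benjamini-Hochberg adjustment over 12207 genes), in place of the voom step named in the study's methods, which takes counts. The test was also run on simulated data, with changes larger than that of Jun, so that check does not bear on changes of its size. Over 9520 genes (minimum 10 reads per library), replicates differed by more than sampling noise (chi-square per degree of freedom 1.58 in WT, 2.15 in CbfbKO). All 10 genes were named, with Cbfb, the 5 genes most like Jun, and of each list the genes past the threshold, up to 8 by smallest p, or otherwise the 2 with the smallest p. One selected gene is left unreported. The members and lists were chosen with earlier results of these data known, and TGACATCA and TTACCTCA were added to the motif search after the promoter sequences were seen. Alternatives varied scaling, filter, variance model, prior count, test, threshold and libraries. Python 3.11.15 with scipy 1.17.1 and matplotlib 3.10.9 made the summaries and figures.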

Additional observations from a re-analysis of the deposited data

How the results depend on the processing

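Jun was lower in CbfbKO under every setting run, but 4 of 15 alternatives ended its call: quantile normalization (log2 fold change -0.37, adjusted p = 0.0584), no filter on low values (-0.37, 0.291), no mean-variance trend (-0.37, 0.352) and leaving out CbfbKO replicate 2. Leaving out each library gave -0.41 to -0.33, with adjusted p-values of 0.00630 to 0.0807. In those 4 settings the count of the 10 genes called lower was 0 instead of 1, and over the left-out libraries it was 0 to 1. Cbfb stayed at -1.27 without the filter and without the trend, but was not called there (adjusted p = 0.290 and 0.115), and ranged from -1.41 to -1.12 with a library left out.

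Over all genes, the 192 higher and 153 lower became 39 and 44 with quantile normalization, 2 and 53 without a filter, 0 and 0 without the trend (1461 at an unadjusted p under 0.05), 103 and 97 at an adjusted p under 0.01, and 61 to 234 higher and 86 to 161 lower with a library left out. A minimum of 5 CPM gave 300 higher genes, and voom on recovered reads with TMM scaling 243 lower ones. With ribosomal RNA genes left out of the totals, 155 and 165 passed over the same genes (Jun adjusted p = 0.00236), and 59 and 70 when the filter was applied again (0.0299). The choice to keep the same genes here, and to filter again where a library was left out, was made after seeing the data. If a library was left out but the genes of the 4-library filter were kept, 115 and 104 genes were higher and 86 and 75 lower without WT replicates 1 and 2, Jun passed only without WT replicate 2 (adjusted p = 0.0453, against 0.0547, 0.447 and 0.511), and without either CbfbKO library 0 genes passed, Cbfb included (adjusted p = 0.267 and 0.193), with 1104 and 1169 genes at an unadjusted p under 0.05. The cause was not tested.

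Signs turned only in genes that were not called. With a library left out, Fos ranged from -0.69 to 0.34, Fosb from -1.32 to 0.71 (0.19 without WT replicate 1), Fosl1 from -0.092 to 0.15 (-0.041 without WT replicate 1), Fosl2 from -0.19 to 0.051 (0.0023 without WT replicate 1) and Atf3 from -0.10 to 0.82. With TMM scaling Fosl1 was at -0.0002. With the replicate number as a block, 320 genes were higher and 215 lower, and the adjusted p of Jun was 0.000328. The deviations of same-numbered libraries were uncorrelated over the tested genes (-0.0042), so no pairing by number was seen. Counting noise in genes with few reads can hide pairing, so this value cannot exclude it. A pair of planned count-model tests was not run; of the tests that take counts, voom with limma was run on the recovered reads. Depth limits Fos, Fosb and Atf3, which had 16 reads or fewer in each library.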
